A study of Mus musculus with 22 samples.

Results

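The comparison described here set 3 arrays of primary mouse hepatocytes exposed to 50 µM cyclosporin A (CsA) for 48 h against 6 arrays of hepatocytes that received the solvent, 0.5% DMSO, for the same time. Its 9 arrays were chosen by the sample titles attached to the columns of the deposited value table, out of 22 arrays in all. The hepatocytes came from C57Bl6 mice, and small RNA was hybridised to single-colour Agilent mouse microRNA arrays. The rest of the study holds 10 µM CsA and the 24 h time point, of which 3 arrays at 10 µM and 48 h, 2 at 50 µM and 24 h and 5 of DMSO at 24 h are used below. The labels name no genotype beside the strain, no age and no further agent, and 1 protocol field speaks of HepG2 cells where all others name primary mouse hepatocytes. The titles call the replicates biological and the labels number 3 experiments, each of which gave 1 of the 3 CsA arrays and 2 of the 6 DMSO arrays. The labels also place all 50 µM arrays in 1 dose series and all 10 µM arrays in another, with DMSO arrays in both. Whether an experiment was a separate cell isolation the labels do not say, so p-values measure the spread between these arrays.

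CsA binds cyclophilins inside the cell, and this complex blocks calcineurin and so T cell activation. In the liver CsA also inhibits bile salt export and can cause cholestasis. A microRNA (miRNA) is a short RNA, cut as the 5p or 3p arm from a hairpin precursor, that pairs through its seed, bases 2 to 8, with messenger RNAs and lowers their translation or stability.

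The sample names carry a limit that bears on every value below. Each scanner file was matched to its column by rank correlation, which was 1 for the match and at most 0.966 for any other array, and 16 of the 22 columns held a file deposited under another sample's name. Replicates 2 and 3 of the 50 µM arrays at 48 h are filed as 10 µM arrays of the same time. With the file names in place of the column names, 1 of 290 miRNAs was called and not 110. The deposited sources do not settle which set of names is right.

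A DMSO array also stood apart from its group. DMSO replicate 6 had 17.6% of probes above background, against 12.3% to 13.7% on the other 5. It had the highest DMSO value for 73 of the 80 miRNAs that were higher in CsA and the lowest for 27 of the 30 that were lower, so it lay on the CsA side of its own group. Without it 114 miRNAs were higher and 59 lower in the same fit, and all 110 calls remained. On the CsA side, replicate 3 had 21.9% of probes above background against 10.3% and 15.8%, and without it 55 were higher and 17 lower, all of them among the 110.

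The sequences that follow belong to the miRNAs on which the results turn. They are RefSeq mature sequences on build GRCm38.p6, with the seed in capitals. The first set shows called risers of the imprinted Dlk1-Dio3 region of chromosome 12, each with a seed of its own.
miR-370-3p: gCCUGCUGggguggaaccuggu
miR-494-3p: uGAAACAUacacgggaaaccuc
miR-770-3p: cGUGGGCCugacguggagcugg
miR-1906: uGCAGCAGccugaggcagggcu
miR-3072-5p: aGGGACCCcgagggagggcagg

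The next set shows entries, not all of 1 seed, that share the run of letters GAGAUGGCU. The run was found after values were seen, in a search for any 9 letters held by 3 or more tested miRNAs of unlike seed. At least 1 holder had to be called, and this run was picked from several that met these terms. It occurred in 4 of the 229 tested miRNAs with a sequence (1.75%). Of these 4, 3 were higher in CsA, beside 27.6% over all tested, a count that is no test since the search used the calls. The same letters occur in B2 repeats, which are spread through the mouse genome.
miR-3473a: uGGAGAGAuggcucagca
miR-3473b: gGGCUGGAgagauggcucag
miR-3473e: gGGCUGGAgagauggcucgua
miR-5128: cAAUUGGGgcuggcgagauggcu

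A further set holds pairs and families that share a seed, in which 1 member or more was lower in CsA. They are shown because members with the same seed did not all pass the test. Within the last pair, miR-130a-3p and miR-721 have the same seed and were called in opposite directions, a call that miR-721 lost under the other scalings.
miR-221-3p: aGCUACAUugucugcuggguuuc
miR-222-3p: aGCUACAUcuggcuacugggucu
miR-27a-3p: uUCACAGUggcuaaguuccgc
miR-27b-3p: uUCACAGUggcuaaguucugc
miR-148a-3p: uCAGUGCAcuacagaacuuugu
miR-148b-3p: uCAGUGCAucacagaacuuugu
miR-152-3p: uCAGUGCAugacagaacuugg
miR-106b-5p: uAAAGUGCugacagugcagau
miR-93-5p: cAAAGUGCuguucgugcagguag
miR-17-5p: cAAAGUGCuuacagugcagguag
miR-20a-5p: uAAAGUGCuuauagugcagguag
miR-20b-5p: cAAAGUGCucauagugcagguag
miR-130a-3p: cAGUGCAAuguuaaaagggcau
miR-721: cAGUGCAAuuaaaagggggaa

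The last set shows both arms of 2 hairpins from 1 cluster on chromosome 17, whose 5p arms were lower and whose 3p arms were higher.
miR-99b-5p: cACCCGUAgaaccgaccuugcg
miR-99b-3p: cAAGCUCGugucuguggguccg
miR-125a-5p: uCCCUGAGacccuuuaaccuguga
miR-125a-3p: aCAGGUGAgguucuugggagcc

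Levels are given on a log2 scale as the processed probe signal relative to the array's 75th percentile, taken over 281 probes that were above background on all 22 arrays. Values were floored at -4.41, so a level of -4.41 means at or below the floor. A log2 change is the mean of the 3 CsA arrays minus the mean of the 6 DMSO arrays, from a limma model over all 6 groups of the design, with p-values adjusted over 290 miRNAs. SEs come from that model. Levels of different miRNAs come from different probes, so only their changes between groups are compared.

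The arrays carried the marks of hepatocytes. The liver miRNA miR-122-5p took 6.73% to 7.18% of the summed signal on the CsA arrays and 7.19% to 11.7% on the DMSO arrays. Markers of leukocytes (0 of 4), erythroid cells (0 of 2), muscle (0 of 3) and other epithelia (0 of 5) were above background on none of the 9 arrays. Of 2 endothelial markers miR-126-3p was seen, on 2 CsA and 6 DMSO arrays, and of 5 stellate and mesenchymal markers miR-145a-5p, on 2 and 3. The summed level of the endothelial markers, as a linear ratio to the 75th percentile, ran from 0.129 to 0.158 in CsA and from 0.101 to 0.203 in DMSO. That of the stellate and mesenchymal markers ran from 0.259 to 0.296 and from 0.236 to 0.313. The sums of the other 4 marker lists were at the floor throughout.

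After 48 h at 50 µM, 80 miRNAs were higher than in DMSO (27.6% of 290 tested) and 30 were lower (10.3%), at an adjusted p under 0.05 in limma. Of these, 70 and 24 differed over 1.5-fold. The values of the CsA and DMSO arrays did not overlap for 48 higher miRNAs (16.6%) and 29 lower ones (10.0%), among them 46 of the 80 and 23 of the 30 called. The median log2 change of all 290 was 0.13. Every one of the 164 probes measured for the 80 higher miRNAs, and of the 58 measured for the 30 lower ones, had the sign of its miRNA. So did 558 of 566 probes over all tested and 336 of 344 for the miRNAs not called. The brightest probe, which stood for its miRNA, is counted in each. With the experiment number as a block, 97 were higher and 58 lower.

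The split between higher and lower depended on the scaling. Higher miRNAs made up 72.7% of the calls here, 52.9% after quantile normalisation, 36.6% when the percentile was taken over all probes, 37.9% after normexp and 40.4% in the authors' value table. The median change of all miRNAs was 0.13 here and -0.13 over all probes. All 30 lower miRNAs were called lower under each of these 4 other scalings, against 26 of the 80 higher ones. Of the 80, 74 were positive under all 4. Under at least 1 of them miR-125a-3p, miR-680 and miR-760-3p were negative, and miR-675-5p, miR-546 and miR-5120 stood at 0.

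**Figure D1:**
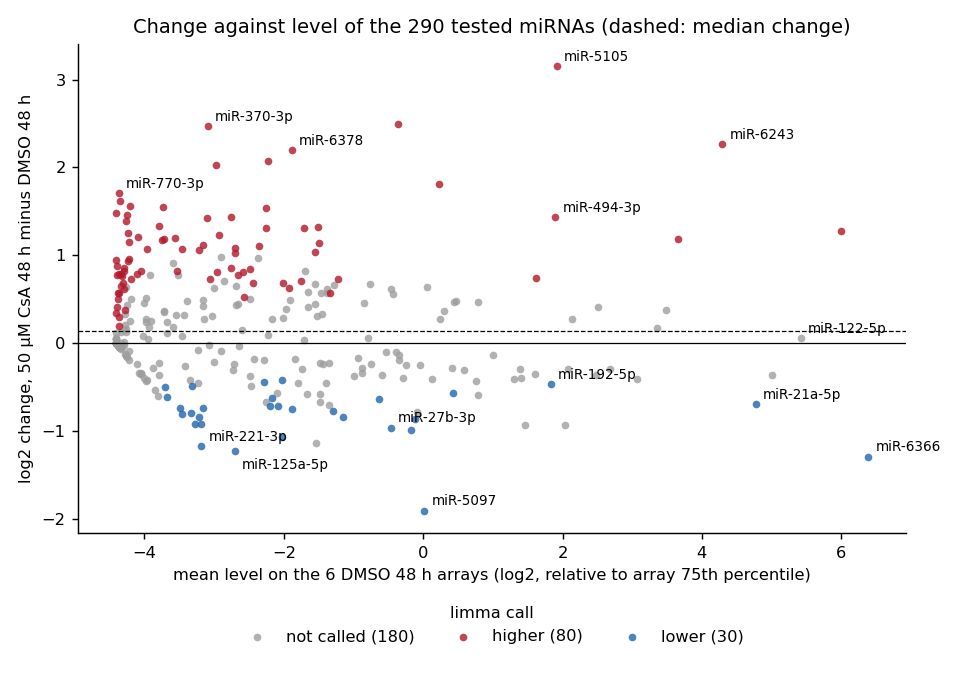
The log2 change in 50 µM CsA at 48 h (vertical) is plotted against the mean log2 level on the 6 DMSO arrays (horizontal) for the 290 tested miRNAs, with the 80 higher in red, the 30 lower in blue and the others in grey. The dashed line is the median change of 0.13, and miR-5105 is the topmost point at 3.15, while many of the higher miRNAs lie at the left edge, near the floor of the DMSO arrays.

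All 3 CsA arrays lay on 1 slide, which also carried DMSO replicate 5, while the other DMSO arrays lay on the remaining slides. Slide as a block left 63 higher and 17 lower miRNAs, all of them among the 110. Against DMSO replicate 5 alone, within that slide, all 80 and all 30 kept their sign, with medians of 0.92 and -0.53 beside 1.03 and -0.76 over all arrays. Scan and slide were the same batches and cannot be told apart.

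The detection of the higher and lower miRNAs is given beside that of all tested. Of the 80 higher ones, 44 were above background on all 6 DMSO arrays, 34 on some of them and 2 on none, and 54 were above it on all 3 CsA arrays. Among the 30 lower ones, 29 were above background on all DMSO arrays and 18 on all CsA arrays. Of all 290 tested, 185 were above it on all DMSO arrays and 174 on all CsA arrays. A miRNA at the floor in DMSO cannot be called lower, so the detection of the lower ones is partly set by the call. Entries numbered 1000 or above, which entered the registry late and are mostly less studied, made up 51 of the 80 higher (63.8%) and 2 of the 30 lower (6.67%), against 110 of the 290 tested (37.9%). Of the 448 such entries on the array, 110 were tested, and their median log2 change was 0.66 beside 0.13 over all tested. The median of these entries was 0.37 after quantile normalisation and 0.09 when scaled over all probes.

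Imprinted miRNAs of the Dlk1-Dio3 region were among the largest risers. The Dlk1-Dio3 region is transcribed from the maternal chromosome in Meg3, Rian and Mirg, is active in embryo and placenta and is little expressed in adult liver. By RefSeq locus, 116 miRNAs of the array lie between Dlk1 and Dio3. Of these 10 were tested, and 6 rose, beside 27.6% over all tested, and 0 fell. Their median change was 0.68 beside 0.13 over all tested, and was 0.38 after quantile normalisation and 0.23 when scaled over all probes. Of the 106 others, 101 were at background on all 9 arrays.

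At chr12:109618305-109618326 (+), within Rian, miR-370-3p stood at -0.79, -0.68 and -0.39 on the 3 CsA arrays and had a lowest, median and highest value of -3.59, -3.35 and -1.65 on the DMSO arrays. The highest of these was DMSO replicate 6, and the groups did not overlap. Its change was 2.47 ± 0.39 (SE, adjusted p = 8.67e-05), or 5.53-fold.

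Within Meg3, at chr12:109563744-109563765 (+), miR-770-3p stood at -2.70, -2.63 and -2.66 in CsA and at -4.41, -4.41 and -4.18 in DMSO (lowest, median and highest, as in what follows). It was above background on all 3 CsA arrays and on 2 of the 6 DMSO arrays, where the values lay at or near the floor. The change was 1.70 ± 0.06 (SE, adjusted p = 5.22e-14), and its SE is understated since arrays held at the floor vary less.

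Further along the same region, miR-494-3p, at chr12:109715367-109715388 (+), had levels of 3.13, 3.30 and 3.56 in CsA and 1.70, 1.79 and 2.39 in DMSO. Every CsA array was above every DMSO array, and the change was 1.44 ± 0.18 (SE, adjusted p = 6.62e-06), 2.7-fold. Smaller rises were those of miR-1906, which lies in Meg3 and has a copy on chromosome X, at 0.68 ± 0.12 (SE, adjusted p = 0.000162), of miR-3070b-3p at 0.68 ± 0.23 (SE, adjusted p = 0.0262) and of miR-3072-5p at 0.68 ± 0.23 (SE, adjusted p = 0.0249). These 3 were named after their values were seen. When slide was a block, miR-3070b-3p came to 0.76 (adjusted p = 0.0601) and miR-3072-5p to 0.74 (adjusted p = 0.054), and over all probes the 3 changes were 0.10, 0.31 and 0.11. The other 4 tested members, miR-134-5p, miR-341-3p, miR-432 and miR-487b-3p, were not called, with changes of 0.51, 0.63, 0.78 and 0.00.

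The largest rise on the array was that of miR-5105. Its levels were 5.46, 4.69 and 5.07 in CsA and 1.30, 1.80 and 2.86 in DMSO, a change of 3.15 ± 0.43 (SE, adjusted p = 2.01e-05) or 8.89-fold. It took 7.51%, 4.36% and 5.28% of the summed signal on the CsA arrays and 0.671% to 1.5% on the DMSO arrays. Another bright entry, miR-6243, rose from 3.76, 4.17 and 5.48 in DMSO to 6.66, 6.42 and 6.59 in CsA, by 2.26 ± 0.33 (SE, adjusted p = 5.13e-05). Its share of the signal was 16.7%, 14.8% and 16% in CsA and 3.22% to 8.02% in DMSO. For both the DMSO array nearest to CsA was replicate 6, and neither group of 3 overlapped the 6. These names are those of the array design, and whether each entry is a miRNA was not tested.

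Several risers lie inside genes of other kinds. The RefSeq mature sequence of miR-5121 lies at chr7:45126925-45126945 (-), within the span of Snord33, a small nucleolar RNA in the ribosomal protein gene Rpl13a. Its levels were 0.10, -0.37 and -0.17 in CsA and -2.79, -2.53 and -0.68 in DMSO, with -0.68 on replicate 6 and none of the other DMSO arrays above -2.15. The change was 2.07 ± 0.53 (SE, adjusted p = 0.00502). For miR-1306-3p, at chr16:18284248-18284268 (-) within Dgcr8, whose protein binds primary miRNA transcripts for Drosha, levels were -0.89, -1.03 and -0.94 in CsA and -3.59, -3.06 and -1.68 in DMSO. It rose by 2.02 ± 0.31 (SE, adjusted p = 6.69e-05), 4.06-fold. Within Tpx2, a spindle assembly gene, miR-5622-3p at chr2:152865105-152865126 (+) had 2.43, 1.89 and 2.09 in CsA and -0.75, -0.59 and 0.74 in DMSO, a rise of 2.49 ± 0.28 (SE, adjusted p = 2.22e-06). None of these 3 miRNAs overlapped between the groups.

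The entries that share the run GAGAUGGCU were all positive. The level of miR-3473b was 1.79, 2.02 and 2.32 in CsA and -0.22, 0.05 and 1.22 in DMSO, a change of 1.81 ± 0.32 (SE, adjusted p = 0.00022). Those of miR-3473a and miR-5128 were 1.53 and 1.31, and that of miR-3473e, not called, was 0.91 (adjusted p = 0.0549). Their loci are apart, within Syap1 on chromosome X (miR-3473a), Ccdc162 on 10 (miR-3473b), Rbks on 5 (miR-3473e) and Strbp on 2 (miR-5128). For miR-5128 DMSO replicate 6, at 0.05, lay above all 3 CsA arrays. Its rise did not pass with slide as a block (1.33, adjusted p = 0.0599) or over all probes (0.73, adjusted p = 0.152). Entries this alike in sequence can share signal on an array, so their values are not independent.

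The remaining large risers were miR-6378 at 2.19 ± 0.16 (SE, adjusted p = 7.13e-09), miR-1940 at 1.55 ± 0.30 (SE, adjusted p = 0.000638), miR-3102-3p at 1.61 ± 0.20 (SE, adjusted p = 6.62e-06) and miR-5132-5p at 1.56 ± 0.24 (SE, adjusted p = 7.85e-05). All 3 CsA arrays lay above all 6 DMSO arrays for each. On the DMSO arrays miR-3102-3p and miR-5132-5p were above background on replicate 6 alone, while miR-6378 was above it on all 6 and ranged there from -2.14 to -1.59. Its CsA levels were 0.10, 0.21 and 0.62. For miR-6351 no DMSO array and 2 of the 3 CsA arrays were above background. It was 2.62-fold higher when the mean of the CsA arrays was set against the lowest signal above background on each DMSO array. That mean includes the CsA array not above background, so the value is no strict lower bound. The fitted change of miR-6351, which depends on the floor, was 1.48 ± 0.08 (SE, adjusted p = 2.35e-10). Within Gabre, a GABA receptor gene on chromosome X, miR-452-5p rose from -4.41, -4.38 and -3.69 to -3.09, -2.86 and -2.65, by 1.39 ± 0.15 (SE, adjusted p = 2.17e-06), and was above background on 1 of 6 DMSO arrays.

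**Figure D2:**
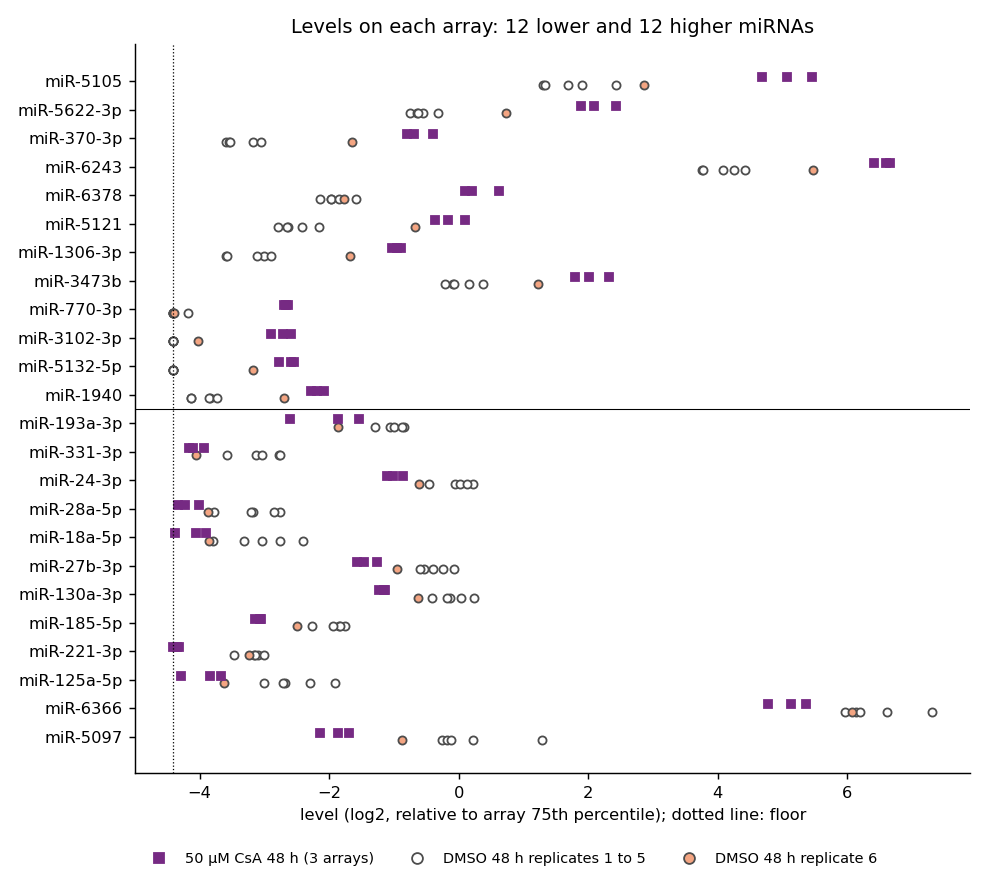
Each row is a miRNA, and the horizontal axis is its log2 level relative to the array's 75th percentile, with a purple square for each of the 3 CsA arrays, an open circle for DMSO replicates 1 to 5 and an orange circle for DMSO replicate 6. The upper 12 miRNAs were higher and the lower 12 were lower in CsA, and the orange circle lies on the CsA side of the open circles in most rows, with the dotted floor at -4.41.

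Among the inflammation miRNAs 3 of the 7 on the array were tested, and they moved in both directions. The miRNA miR-155-5p, which is induced in activated immune cells, stood at -3.57, -3.44 and -3.37 in CsA and -4.41, -4.23 and -3.77 in DMSO and rose by 0.73 ± 0.17 (SE, adjusted p = 0.00297). It was above background on 2 of 3 CsA arrays and 4 of 6 DMSO arrays. The call did not hold under any of the 4 other scalings, where the change was 0.28 after quantile normalisation, 0.17 over all probes, 0.0427 after normexp and 0.23 in the authors' value table (adjusted p from 0.0822 to 0.802). In the other direction miR-21a-5p, an abundant miRNA raised in injured liver and tumours and encoded within the span of Vmp1, fell. Its levels were 4.14, 4.17 and 3.94 in CsA and 4.15, 4.84 and 5.17 in DMSO, a change of -0.69 ± 0.17 (SE, adjusted p = 0.00349). The lowest DMSO value was that of replicate 6, which lay among the CsA values. The third tested member, miR-212-3p, stood at -0.67 and was not called. Leukocyte markers were at background on all 9 arrays, as given above.

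Of the 30 lower miRNAs, miR-221-3p gave the lowest adjusted p. It represses Cdkn1b, an inhibitor of the cell cycle, and lies at chrX:19146307-19146329 (-) beside miR-222, with which it shares its seed. Levels of miR-221-3p were -4.41, -4.32 and -4.35 in CsA, at or near the floor, and -3.48, -3.15 and -3.0 in DMSO. It fell by 1.17 ± 0.17 (SE, adjusted p = 4.76e-05), was above background on 1 of 3 CsA arrays, and was the single call under the file names (-1.01). Its partner miR-222-3p was above background on 1 CsA and 2 DMSO arrays and gave -0.05 ± 0.05 (SE, adjusted p = 0.425), a value set by the floor.

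The miR-23/24/27 clusters, which lie on chromosomes 8 and 13 and include regulators of lipid and angiogenesis genes, were negative in 5 of 5 tested members, of which 2 passed, beside 10.3% called lower over all tested. Their median was -0.86 beside 0.13 over all tested, and -0.28 within the slide of the CsA arrays. For miR-27b-3p, at chr13:63300760-63300780 (+) within Aopep, levels were -1.27, -1.46 and -1.57 in CsA and -0.95, -0.47 and -0.08 in DMSO, and it fell by 0.97 ± 0.17 (SE, adjusted p = 0.000225). Its cluster mate miR-24-3p, which is also encoded on chromosome 8, fell from -0.61, -0.01 and 0.22 to -1.01, -0.85 and -1.10, with a change of -0.86 ± 0.19 (SE, adjusted p = 0.00191). The groups did not overlap for either. The chromosome 8 paralogue miR-27a-3p has the same seed and a change of -1.14 ± 0.51 (SE, adjusted p = 0.0889), which did not pass; its DMSO arrays spread from -2.69 to -0.24. With the experiment number as a block its adjusted p was 0.00059.

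Lipid metabolism miRNAs, a list that shares miR-27a and miR-27b with those clusters, were lower in 5 of 12 tested members, beside 10.3% over all tested, and higher in 0. Their median was -0.61, against -0.28 within the slide of the CsA arrays and -1.19 when scaled over all probes. Besides miR-27b-3p these were miR-185-5p, miR-130a-3p, miR-378b and miR-103-3p. The miRNA miR-185-5p, which represses the sterol factor SREBP-2 and the receptor SR-BI, stood at -3.15, -3.05 and -3.07 in CsA and -2.50, -1.89 and -1.76 in DMSO, a change of -1.07 ± 0.17 (SE, adjusted p = 7.39e-05). For miR-130a-3p, which targets Pparg, levels were -1.23, -1.15 and -1.13 and -0.63, -0.16 and 0.24, and the change was -0.99 ± 0.19 (SE, adjusted p = 0.000635). Neither overlapped between the groups. The insulin-sensitivity miRNA miR-103-3p and its seed partner miR-107-3p changed by -0.64 ± 0.15 (SE, adjusted p = 0.00217) and -0.37 ± 0.15 (SE, adjusted p = 0.0623), the latter not called. The value of miR-378b was -0.76 ± 0.17 (SE, adjusted p = 0.00199), and -0.49 (adjusted p = 0.0503) with slide as a block.

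The seed partner of miR-130a-3p went the other way. Within Cux1 on chromosome 5, miR-721 had -1.21, -1.52 and -1.15 in CsA and -2.26, -2.06 and -1.06 in DMSO, and rose by 0.63 ± 0.22 (SE, adjusted p = 0.0295). Replicate 6, at -1.06, lay above all 3 CsA arrays. It was named after its values were seen, as were miR-27a-3p, miR-148b-3p, miR-152-3p, miR-361-5p, miR-23a-5p and the 3p arms of miR-99b and miR-125a. With slide as a block its value was 0.68 (adjusted p = 0.0622). Nor did the rise of miR-721 pass under any of the 4 other scalings, with changes of 0.0513 to 0.35 (adjusted p from 0.0559 to 0.927).

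In the family of miR-148a, miR-148b and miR-152, whose seed is CAGUGCA, 2 of 3 members were lower, beside 10.3% over all tested. These were miR-148b-3p, in Copz1, at -0.81 ± 0.22 (SE, adjusted p = 0.00666) and miR-152-3p, in Copz2, at -0.61 ± 0.18 (SE, adjusted p = 0.0129). Each was above background on a single CsA array and on all 6 DMSO arrays. Once slide entered as a block, miR-148b-3p stood at -0.48 (adjusted p = 0.112). The liver-enriched member miR-148a-3p, a regulator of the LDL receptor, was at -0.10 ± 0.18 (SE, adjusted p = 0.69).

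In the proliferation-linked miR-17/92a cluster and its paralogues, 10 of 10 tested members were negative and 3 passed, beside 10.3% over all tested, with a median of -0.43. The oncogenic cluster miRNA miR-18a-5p fell from -3.85, -3.17 and -2.40 to -4.06, -3.91 and -4.38, by 0.92 ± 0.31 (SE, adjusted p = 0.0246). From the paralogous cluster in Mcm7, a replication licensing gene on chromosome 5, miR-93-5p and miR-106b-5p changed by -0.77 ± 0.25 (SE, adjusted p = 0.0194) and -0.63 ± 0.22 (SE, adjusted p = 0.0279), and their neighbour miR-25-3p by -0.23 ± 0.25 (SE, adjusted p = 0.486). The last did not pass. With slide as a block the values were -0.76 (adjusted p = 0.147) for miR-18a-5p, -0.63 (adjusted p = 0.144) for miR-93-5p and -0.40 (adjusted p = 0.283) for miR-106b-5p, and within the slide of the CsA arrays the list's median was 0.04.

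Hepatocyte-enriched miRNAs were lower in 2 of 10 tested members, beside 10.3% over all tested, and higher in 0, with a median of -0.24. The miRNA that is most characteristic of hepatocytes, miR-122-5p, stood at 5.44, 5.43 and 5.53 in CsA and 5.30, 5.37 and 5.63 in DMSO. The groups overlapped, and the change was 0.05 ± 0.11 (SE, adjusted p = 0.712); it was -0.39 after quantile normalisation and -0.52 when scaled over all probes, both negative. The star arm miR-122-3p was at -0.04 ± 0.16 (SE, adjusted p = 0.884). Of the p53-responsive cluster on chromosome 19, miR-192-5p was 1.33, 1.41 and 1.36 in CsA and 1.50, 1.87 and 2.07 in DMSO, a fall of 0.47 ± 0.14 (SE, adjusted p = 0.0144), while miR-194-5p was at -0.29 ± 0.15 (SE, adjusted p = 0.132). The fall of miR-192-5p came to -0.30 (adjusted p = 0.187) in the fit that has slide as a block. The other member that passed was miR-193a-3p, at -0.84 ± 0.23 (SE, adjusted p = 0.00731).

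Of the 5 tested p53-responsive miRNAs, 1 was lower, miR-192-5p, beside 10.3% over all tested. The p53 target miR-34a-5p had 0.24, 0.35 and 0.00 in CsA and 0.00, 1.01 and 1.32 in DMSO, with replicates 5 and 6 at 0.27 and 0.00, no higher than the highest CsA array. Its change of -0.59 ± 0.28 (SE, adjusted p = 0.104) did not pass, and its adjusted p was 0.00787 with the experiment number as a block. The hypoxia miRNA miR-210-3p was at -0.25 ± 0.27 (SE, adjusted p = 0.468).

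Other conserved families had at most 1 called member each, beside 10.3% called lower over all tested. All 9 let-7 members, which restrain growth genes, were negative with a median of -0.40 and 0 passed limma's threshold (their adjusted p-values ran from 0.0557 to 0.313, and 4 had an unadjusted p under 0.05). Of 5 miR-30 members 1 passed, miR-30e-5p at -0.44 ± 0.14 (SE, adjusted p = 0.0164), and of 2 miR-26 members 1, miR-26a-5p at -0.57 ± 0.16 (SE, adjusted p = 0.0107). The miR-29 and miR-15/16 families had 0 of 3 members each called and medians of -0.24 and -0.22. Within the slide of the CsA arrays the medians were -0.13 for let-7, 0.0848 for miR-29 and 0.0319 for miR-15/16, so that the last 2 changed sign. In the cluster of miR-182, miR-183 and miR-96, of which 3 were tested, miR-182-5p was lower at -0.49 ± 0.14 (SE, adjusted p = 0.0123), and the cluster's median was -0.42. With slide as a block the values were -0.34 (adjusted p = 0.147) for miR-30e-5p, -0.48 (adjusted p = 0.0837) for miR-26a-5p and -0.49 (adjusted p = 0.0541) for miR-182-5p. The families from an intron of Sfmbt2 (miR-669, miR-467, miR-466 and miR-297) had 11 of 61 members tested, 0 called and a median of 0.32, which was -0.00496 after quantile normalisation and -0.09 when scaled over all probes.

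**Figure D3:**
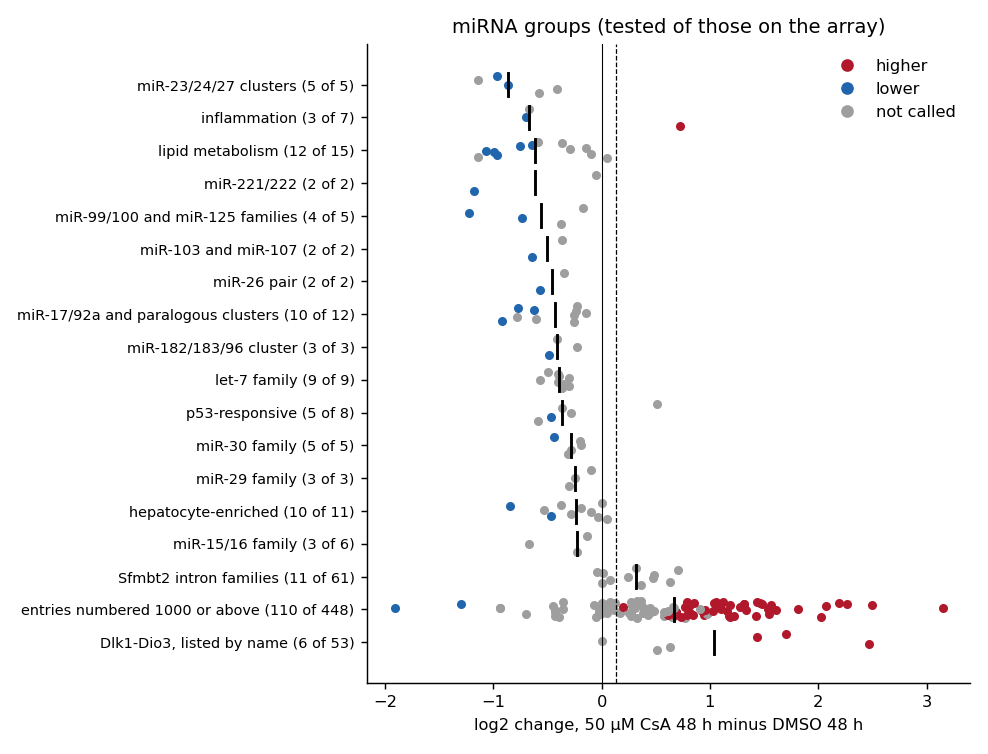
Each dot is the log2 change of 1 tested miRNA in 50 µM CsA at 48 h, sorted by group, with higher calls in red, lower calls in blue and the others in grey. Black bars mark group medians, from -0.86 for the miR-23/24/27 clusters to 1.03 for the Dlk1-Dio3 miRNAs listed by name, which are 6 of the 10 tested from that region, and the dashed line marks the median of all 290 tested, 0.13.

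The remaining large falls were of a single bright entry and of less studied miRNAs. The entry miR-6366 took 5.58%, 4.61% and 6.16% of the summed signal in CsA and 12.1% to 30.3% in DMSO, and its levels of 5.13, 4.78 and 5.37 lay below the DMSO values of 5.96, 6.17 and 7.32. Its change was -1.30 ± 0.45 (SE, adjusted p = 0.0279), and miR-5097, the other lower entry numbered 1000 or above, was at -1.91 ± 0.48 (SE, adjusted p = 0.00403). Within the spans of protein-coding genes, miR-28a-5p in Lpp and miR-331-3p in Vezt changed by -0.92 ± 0.22 (SE, adjusted p = 0.00299) and -0.84 ± 0.26 (SE, adjusted p = 0.0158), and miR-361-5p in Chm by -0.74 ± 0.12 (SE, adjusted p = 7.92e-05). Each of these 3 was above background on 2 of the 3 CsA arrays and on all 6 DMSO arrays. With slide as a block miR-331-3p stood at -0.66 (adjusted p = 0.133).

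The cluster of miR-99b, let-7e and miR-125a on chromosome 17, within Spaca6, held calls in both directions. The 5p arms fell: miR-125a-5p, the mammalian relative of lin-4, had -3.66, -3.84 and -4.29 in CsA and -3.63, -2.69 and -1.91 in DMSO, a change of -1.23 ± 0.27 (SE, adjusted p = 0.00153), and miR-99b-5p changed by -0.74 ± 0.22 (SE, adjusted p = 0.0128). Their 3p arms rose, miR-125a-3p by 0.57 ± 0.21 (SE, adjusted p = 0.0354) and miR-99b-3p by 0.82 ± 0.19 (SE, adjusted p = 0.00234). The rise of miR-99b-3p did not pass over all probes (0.26) or after normexp (0.0687). That of miR-125a-3p flipped in sign when scaled over all probes (-0.00398) and in the authors' value table (-0.05). Its value with slide as a block was 0.60 (adjusted p = 0.0968). Replicate 6 had -0.59 for it, above all 3 CsA arrays.

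The difference between the arms of 1 hairpin on 1 array does not change when the array is divided by another percentile, where both arms are above the floor. Under quantile normalisation, normexp or the authors' value table it can change, and it was not taken there. It was taken for the 24 hairpins with both arms tested. For miR-99b the 3p arm minus the 5p arm shifted from DMSO to CsA by 1.56 (exact permutation test, two-sided, p = 0.0238, the smallest this design allows, adjusted p = 0.143 over 24 hairpins). Of the 3 CsA arrays 1 had its 5p arm above background and 2 its 3p arm, as did 5 of the 6 DMSO arrays for each, so part of this shift rests on values not well above background. For miR-125a the shift was 1.80 (exact p = 0.0714, adjusted p = 0.208), and CsA and DMSO overlapped. The hairpin miR-3102 shifted by 2.05 (exact p = 0.0238, adjusted p = 0.143), with its 3p arm above background on 3 CsA arrays and 1 DMSO array. No hairpin passed after adjustment, and 4 of the 24 did not overlap between the groups, miR-99b, miR-3102, miR-1839 and miR-192. The 3p arm of miR-192 was above background on none of the 9 arrays, so its value follows the 5p arm alone. In the opposite direction miR-23a shifted by -1.23 (exact p = 0.119, adjusted p = 0.22), with miR-23a-5p higher at 0.65 ± 0.11 (SE, adjusted p = 0.000217) and miR-23a-3p at -0.58. The 5p arm of miR-23a was above background on 2 CsA arrays and 1 DMSO array, so its change and SE depend on the floor. Its rise did not pass in limma after normexp (0.16, adjusted p = 0.0548).

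**Figure D4:**
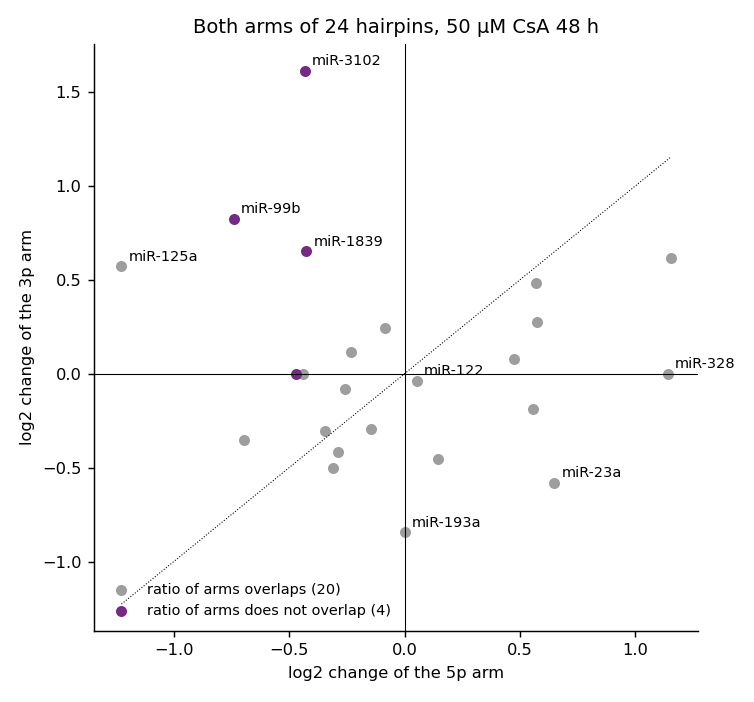
For each of 24 hairpins the log2 change of the 3p arm (vertical) is plotted against that of the 5p arm (horizontal) in 50 µM CsA at 48 h, and the dotted line marks equal change. Purple marks the 4 hairpins whose arm difference did not overlap between the 3 CsA and 6 DMSO arrays; miR-99b, with -0.74 and 0.82, and miR-125a, with -1.23 and 0.57, lie in the upper left field.

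The dose was compared directly at 48 h, 3 arrays against 3. All 50 µM arrays belong to 1 dose series and all 10 µM arrays to another, so dose and series cannot be told apart. At 50 µM, 62 miRNAs were higher than at 10 µM (21.4% of 290) and 22 lower (7.59%). The 10 µM arrays share their 6 DMSO controls with the 50 µM arrays and had 2 higher miRNAs and 1 lower (1.03% in all). Under the file names the 10 µM comparison had 17 higher and 2 lower. The medians of the 80 and the 30 at 10 µM were 0.09 and -0.10, beside 1.03 and -0.76 at 50 µM. The 80 and the 30 were chosen by their change at 50 µM, so larger medians there follow in part from the choice.

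The 3 largest imprinted risers were among those that differed by dose. For miR-370-3p the change was 2.47 at 50 µM and 0.38 at 10 µM, and the doses differed by 2.09 ± 0.45 (SE, adjusted p = 0.00199). For miR-494-3p these were 1.44, 0.07 and 1.37 ± 0.20 (SE, adjusted p = 7.66e-05), and for miR-770-3p 1.70, 0.22 and 1.48 ± 0.07 (SE, adjusted p = 6.68e-12). The bright entry miR-5105 differed by 2.85 ± 0.50 (SE, adjusted p = 0.000321).

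For miR-182-5p the doses lay on opposite sides of DMSO, at -0.49 for 50 µM and 0.82 for 10 µM, and differed by -1.31 ± 0.17 (SE, adjusted p = 1.34e-05). The injury-linked miR-21a-5p was at -0.69 and 0.10, a difference of -0.79 ± 0.19 (SE, adjusted p = 0.00559). For miR-221-3p the changes were -1.17 and -0.81, and both passed. Its doses differed by -0.37 ± 0.20 (SE, adjusted p = 0.168), which did not pass. The 50 µM levels of miR-221-3p lay at or near the floor, which limits how large this difference can be. The number that differed by dose was 47 without 50 µM replicate 3, 45 without 10 µM replicate 1 and 53 without 10 µM replicate 2. Under the file names, where 2 arrays of each dose trade places, 0 miRNAs differed by dose in limma (16 with an unadjusted p under 0.05).

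**Figure D5:**
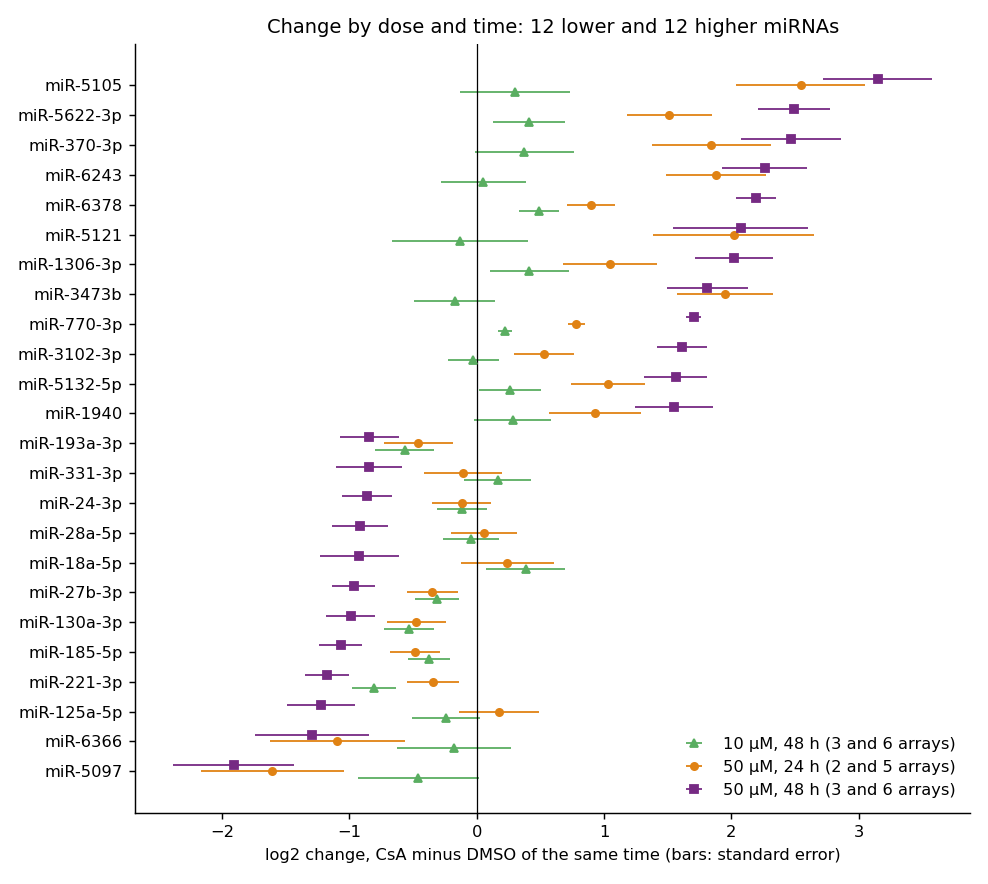
Log2 changes with standard errors are given for the 12 most lowered and 12 most raised miRNAs, as green triangles for 10 µM at 48 h (3 against 6 arrays), orange circles for 50 µM at 24 h (2 against 5) and purple squares for 50 µM at 48 h (3 against 6). For miR-5105 they stand at 0.30, 2.55 and 3.15, and for miR-221-3p at -0.81, -0.34 and -1.17.

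At 50 µM the response at 48 h was set against that at 24 h by the interaction term, each with its own DMSO arrays. In all 12 miRNAs differed between the times (4.14% of 290), 11 upward and 1 downward, and 33 did with the experiment number as a block. The 24 h comparison itself, with 2 CsA and 5 DMSO arrays, had 11 higher miRNAs and 0 lower in limma (3.79%), with 41 at an unadjusted p under 0.05 in either direction. All 11 were among the 80 higher at 48 h. The medians of the 80 and the 30, which were chosen by their change at 48 h, were 0.49 and -0.17 at 24 h.

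Larger at 48 h than at 24 h were miR-6378, by 1.29 ± 0.25 (SE, adjusted p = 0.00325), miR-6351, by 1.41 ± 0.13 (SE, adjusted p = 8.49e-07), miR-452-5p, by 1.07 ± 0.24 (SE, adjusted p = 0.013), and miR-770-3p, by 0.92 ± 0.09 (SE, adjusted p = 8.49e-07). At 48 h miR-6351, miR-452-5p and miR-770-3p were above background on 0, 1 and 2 of the 6 DMSO arrays. Arrays held at the floor vary less, so their SEs and p-values are understated. Several others of the 12 were likewise at the floor on most DMSO arrays. For miR-361-5p the change was -0.74 at 48 h and -0.05 at 24 h, a difference of -0.69 ± 0.18 (SE, adjusted p = 0.0359). This difference passed in 10 of 29 alternatives, with values from -2.49 to -0.26. Without DMSO replicate 6 the number that differed between the times was 31, and without CsA replicate 3 it was 6. It was 7 without DMSO 48 h replicate 1 or 3, 24 h CsA replicate 2 or DMSO 24 h replicate 5, and 6 without 24 h CsA replicate 3. For miR-5105 the changes were 2.55 at 24 h and 3.15 at 48 h, differing by 0.61 ± 0.66 (SE, adjusted p = 0.745), and for miR-3473b 1.95 and 1.81, differing by -0.14 ± 0.49 (SE, adjusted p = 0.909). Neither of these 2 differences passed.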

How the data were processed

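The series holds single-colour Agilent mouse miRNA arrays; 22 were analysed, and 2 of the 24 that the design text names were not analysed here. Per the file headers, the deposited spot files hold intensities that came from Feature Extraction, version 10.7.3.1. The deposited value table holds log2 values; the submitters' processing notes name R 2.15.2 as the authors' tool; its scale, centring and direction were set against the scanner totals, its minimum is -1, and every column median is -1. The label field names biotin, while the labelling protocol names an Agilent kit.

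Each spot file was matched to a column of the value table by rank correlation of its total gene signal, and groups follow the column titles. Processed signals were averaged over the non-control, non-outlier spots of a probe and scaled to the 75th percentile of each array, taken from the 281 probes above background on all arrays. A floor of 0.0471 was set before taking log2, and the brightest probe stood for each miRNA. limma 3.58.1 (R 4.3.3) fitted 1 model over 6 groups to the 290 miRNAs above background on at least 3 of 22 arrays, with Benjamini-Hochberg adjustment. The procedure was tested on simulated data. Single array differences used exact permutation tests, two-sided. With 3 and 6 arrays, their number limits the precision.

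The experiment numbers pair the arrays: deviations of CsA and DMSO arrays of the same experiment correlated at 0.361, 0.524 and 0.511. Between unlike experiments the correlations ran from -0.549 to 0.232. The pairing comes from the experiment numbers in the labels, and was judged from these correlations. The fit without this block is the one reported, so its SEs and p-values leave the pairing out. With the block limma called 155 miRNAs, among them all 110 called without it.

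The members and lists were chosen with earlier results of these data known. Named were the 12 largest changes in each direction among calls above background on every array of the brighter group, called and best-known members of the lists, 9 set miRNA names with their arms, and the 3 largest dose and time differences. The 6 higher miRNAs that were not positive under every scaling, the run-sharing miR-3473a, miR-3473e and miR-5128, and those the text says so of were named after their values were seen. Of the 290 tested miRNAs, 229 matched a RefSeq mature sequence (GRCm38.p6); a check of base composition was void, since fewer than 80% had one, and was not made.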

Additional observations from a re-analysis of the deposited data

Results flagged for a closer look

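DMSO replicate 6 lay far from the other 5 DMSO arrays at 48 h for 15 of the 52 named miRNAs. It was the highest DMSO array for miR-1306-3p (-1.68), miR-155-5p (-3.77), miR-1940 (-2.69), miR-23a-5p (-3.94), miR-3102-3p (-4.02), miR-370-3p (-1.65), miR-452-5p (-3.69), miR-494-3p (2.39), miR-5121 (-0.68), miR-5132-5p (-3.17), miR-5622-3p (0.74), miR-721 (-1.06) and miR-125a-3p (-0.59). It was the lowest for miR-103-3p (-1.01) and miR-194-5p (0.0112). Its share of probes above background, 17.6%, also lay far above the other 5. Chance marks about 1 in 20 groups in this way where values vary freely, and 19 of the 58 groups looked at were marked. These groups share the same arrays and are not independent. For miR-23a-5p, miR-3102-3p and miR-5132-5p every other DMSO array was at the floor, so the gap was the whole range. Named miRNAs were chosen in part by their change on these arrays, and those of narrow range could not be marked. The 19 of 58 is thus no test against chance.

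Other values also lay far from their group. DMSO replicate 2 was highest for miR-770-3p (-4.18), on a group otherwise at or near the floor. The negative controls of DMSO replicate 1 averaged 33.7, with the next highest at 3.02, and outlier spots made up 8.40% of DMSO replicate 5, with the next highest at 4.02%.

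The response to 50 µM differed between 48 h and 24 h, by the interaction term in limma, for 5 named miRNAs. These were miR-6351 (1.41), miR-6378 (1.29), miR-452-5p (1.07), miR-770-3p (0.92) and miR-361-5p (-0.69). For miR-6351, miR-452-5p and miR-770-3p most DMSO arrays at 48 h lay at or near the floor.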

How the results depend on the processing

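Main counts were 80 higher and 30 lower against DMSO, 84 that differed by dose (29.0% of those tested) and 12 that differed by time. Under the file names these were 0, 1, 0 and 0 in limma, with 18 unadjusted p under 0.05 against DMSO, 16 by dose and 1 by time. Higher miRNAs numbered 41 when scaled over all probes, 50 after normexp and 42 in the authors' value table. Lower ones numbered 56 after quantile normalisation, 71 over all probes, 82 after normexp, 62 in the value table, 18 with no filter on dim probes and 17 with slide as a block. With the experiment number as a block there were 58 lower miRNAs and 33 that differed by time, and beyond miR-27a-3p and miR-34a-5p it changed no other call among the 52 named miRNAs. As a share of tested miRNAs, dose differences made up 14.1% over all probes (41) and, with no filter, 4.01% (50 of 1247). The time count was 3 over all probes, 1 after normexp, 1 in the value table, 2 with miRNAs above background on every array of a compared group, and 7 with slide as a block. The causes were not tested.

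Leaving out 1 array gave 55 to 114 higher, 17 to 59 lower, 15.5% to 36.9% of tested by dose and 6 to 31 by time. The highest values were without DMSO 48 h replicate 6, and the lowest without CsA 48 h replicate 3, except that the lowest by dose was without 10 µM replicate 1 and that 6 by time also came without 24 h CsA replicate 3. Leaving out arrays of 10 µM and of 24 h was added after seeing the data. Leaving out DMSO replicate 6 and CsA replicate 3 of 48 h together, also chosen after seeing the data, gave 88 and 33 with 106 of the 110 calls shared. The uncalled miR-122-3p, at -0.04, was positive with slide as a block (0.11), under the file names (0.0249) and within the CsA slide (0.12), and ran from -0.10 to 0.0308 when 1 array was left out. The uncalled miR-122-5p, at 0.05, was -0.39 after quantile normalisation, -0.52 over all probes, -0.35 after normexp, -0.0103 with controls of the same dose series and -0.00096 under the file names. For miR-125a-3p the values were -0.00398 over all probes and -0.0474 in the value table, and for miR-182-5p 0.28 under the file names. The share of probes above background, higher in CsA by the column names, was lower by -2.24 percentage points under the file names. Scan as a block was the same as slide and was not run apart. For arrays near the floor, the signal over background limits what can be seen.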
